A study of Homo sapiens with 10 samples.

Results

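The receptors and co-receptors of the transforming growth factor beta (TGF-beta) and bone morphogenetic protein (BMP) family were followed at the RNA level in HepG2 and SK-Hep1, established human liver tumour lines. The set holds 10 of the 19215 genes in the deposited count tables, taken by symbol: the type I receptors TGFBR1, ACVR1, ACVR1B and BMPR1A, the type II receptors TGFBR2, ACVR2A, ACVR2B and BMPR2, and the co-receptors TGFBR3 and RGMB. All 10 were found and all 10 passed the filter on low counts that left 13349 genes for testing. Both lines had taken up lentivirus (multiplicity of infection 5, polybrene 10 µg/mL, 48 h). Selection in puromycin (1 µg/mL, in 10% serum) took 2 weeks and was followed by pooling of the resistant colonies. The virus expressed a decoy RNA that sequesters a microRNA, called a tough decoy or TuD. It was directed at miR-17 (miR-17 TuD) or was a negative control (NC TuD). HepG2 had 3 libraries with the NC TuD and 3 with the miR-17 TuD, and SK-Hep1 had 2 and 2. Each arm of each line is 1 stable line, so the decoy and differences that arose while the lines were made cannot be told apart. The labels do not say that replicates were separate cultures, so the p-values measure only the spread between these libraries, which may be technical.

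A dimeric ligand of this family brings type II receptors, whose kinase is always active, together with type I receptors, which they phosphorylate. The activated type I receptor then phosphorylates SMAD proteins, which enter the nucleus with SMAD4. TGF-beta signals through TGFBR2 and TGFBR1, activins through ACVR2A or ACVR2B with ACVR1B, and BMPs through BMPR2, ACVR2A or ACVR2B with BMPR1A or ACVR1. TGFBR3, also called betaglycan, presents TGF-beta to its receptors and binds inhibin, while RGMB is a membrane-anchored BMP co-receptor. In liver, TGF-beta is known for restraining hepatocyte growth and driving fibrosis, and BMP signalling for the control of hepcidin.

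A microRNA pairs with its targets mainly through its seed, bases 2 to 8, and the decoy was aimed at a family that shares one. The mature sequences of the family's best known members are shown because the sites in the receptors are read against them, with the seed in capitals. They are from RefSeq (GRCh38.p14), and miR-17-5p lies at chr13:91350618-91350640 on the plus strand.
hsa-miR-17-5p: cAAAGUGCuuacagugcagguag
hsa-miR-20a-5p: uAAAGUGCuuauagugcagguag
hsa-miR-93-5p: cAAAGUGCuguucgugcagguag
hsa-miR-106b-5p: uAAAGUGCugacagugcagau
In all, 8 mature sequences of that table had this seed. The sequence of the decoy itself was not used here.

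The 3′ untranslated region (3′UTR) of each gene, the longest one in GENCODE 29 on GRCh38, was searched on the sense strand for matches to the seed. The letters GCACTTTA make an 8mer. GCACTTT without the final A makes a 7mer-m8, and CACTTTA without the first G makes a 7mer-A1, so that a match was counted only under the longest form it filled. Matches were counted by their letters alone, whatever bases surround them, so a count does not tell how many act as sites. TGFBR2 and RGMB each held 1 8mer, BMPR2 held 4 7mer-m8 matches and ACVR2B held 1. Those below are shown because the members that rose in miR-17 TuD libraries are among them, each with the bases before it and the match in capitals.
TGFBR2 8mer: agccaataacatttGCACTTTA
RGMB 8mer: ggacctgttagaaaGCACTTTA
BMPR2 7mer-m8 at base 450: gttttttaagttttGCACTTTt
BMPR2 7mer-m8 at base 1767: tttttttaaataaaGCACTTTc
ACVR2B 7mer-m8: acttcatgtgacatGCACTTTt
All lie on the plus strand in the last exon of the gene. On GRCh38 TGFBR2 spans chr3:30606502-30694142, RGMB chr5:98768650-98798643, BMPR2 chr2:202376936-202567751 and ACVR2B chr3:38453851-38493142. The TGFBR2 match is at chr3:30691867-30691874 in exon 8 of 8, from base 268 of a 3′UTR of 2543 bases. The RGMB match is at chr5:98794018-98794025 in exon 5 of 5, from base 265 of 2741. Both 8mers therefore sit near the start of their 3′UTR.

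The BMPR2 matches lie in exon 12 of 12, in a 3′UTR of 8049 bases, and those shown start at bases 450 and 1767. Their positions are chr2:202560152-202560158 and chr2:202561469-202561475. The ACVR2B match is at chr3:38486540-38486546 in exon 11 of 11, from base 3208 of 9810. The 3′UTRs of ACVR2B and BMPR2 were longer than those of 98.9% and 97.9% of genes, which gives a short motif more room. A 7mer-A1 was found in TGFBR3 and ACVR1B as their only match, and 1 more each in TGFBR2 and ACVR2B. TGFBR1, ACVR1, ACVR2A and BMPR1A had no match of these letters, although the 3′UTR of BMPR1A, at 9119 bases, was longer than 98.5% of all. Of the 13237 tested genes whose 3′UTR was searched, 5.32% had an 8mer as their best match, 19.7% a 7mer-m8, 6.23% a 7mer-A1 and 68.8% none.

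**Figure D1:**
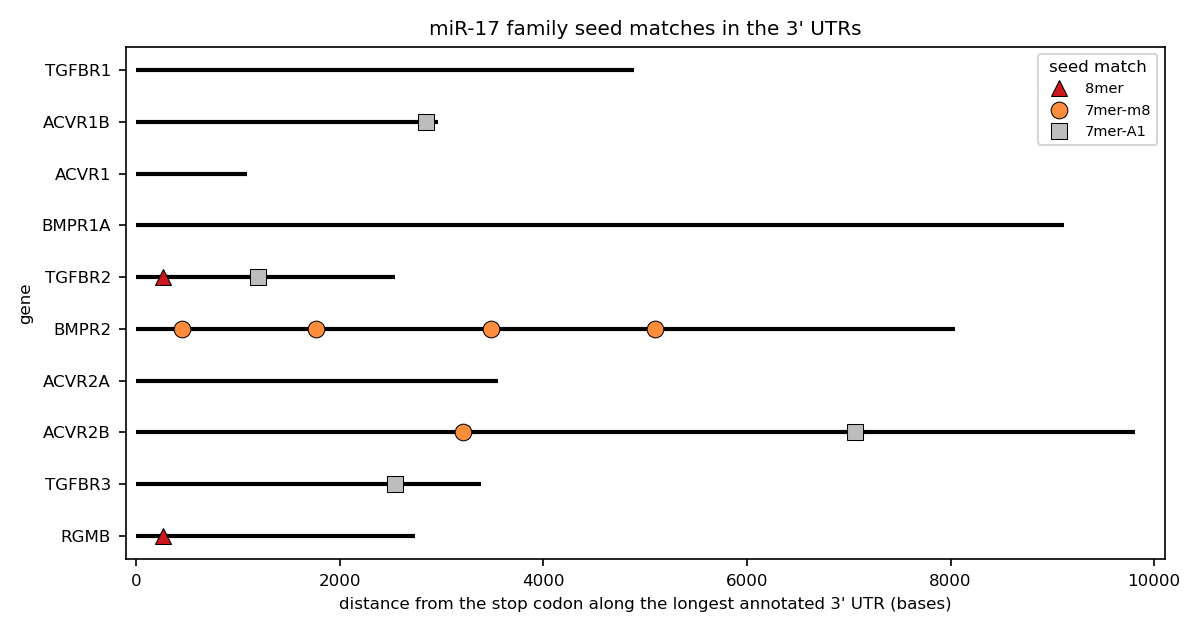
Seed matches along the longest 3′UTR of each member, with distance from the stop codon in bases on the horizontal axis and 1 line per gene whose length is that of the 3′UTR. Symbols mark 8mer, 7mer-m8 and 7mer-A1 matches. The 8mers of TGFBR2 and RGMB lie at bases 268 and 265, and the first of the 4 matches of BMPR2 lies at base 450.

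The first comparison asked how receptor RNA differed in HepG2 between the miR-17 TuD and the NC TuD. TGFBR2, BMPR2 and RGMB were higher with the miR-17 TuD, TGFBR3 and ACVR2B were lower, and no type I receptor passed by edgeR, voom or DESeq2 or on the deposited log2 matrix (2 of 4 had an unadjusted p below 0.05 by edgeR). Levels are CPM, counts relative to the gene counts of the library, scaled by TMM, and a gene was called at an adjusted p below 0.05 by edgeR over all genes tested. Of all genes, 10.7% were called higher and 8.58% lower, against 3 and 2 of the 10 receptor genes. The median log2 fold change of the 10 was 0.03, and that of all genes 0.

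TGFBR2, the receptor that binds TGF-beta and starts its signal, stood at 336, 357 and 341 CPM in the NC TuD libraries of HepG2. With the miR-17 TuD it stood at 463, 461 and 479.8 CPM. Every miR-17 TuD library lay above every NC TuD library. The log2 fold change was 0.44 ± 0.04 (SE; adjusted p = 6.33e-15), or 1.36-fold.

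BMPR2, the type II receptor dedicated to BMPs and related ligands, was at 41.8, 41.5 and 45.1 CPM with the NC TuD and at 60.7, 52.5 and 55.5 CPM with the miR-17 TuD. The groups did not overlap, and the log2 fold change was 0.39 ± 0.06 (SE; adjusted p = 7.5e-07). ACVR2B, which serves activins and BMPs, went the other way. It was at 33.0, 32.4 and 35.8 CPM with the NC TuD and 27.4, 26.1 and 25.2 CPM with the miR-17 TuD. Its groups were apart too, with a log2 fold change of -0.36 ± 0.07 (SE; adjusted p = 0.000152), although its 3′UTR holds a 7mer-m8. Its paralogue ACVR2A ranged from 13.3 to 15.6 CPM over all 6 libraries, with overlapping groups and a log2 fold change of -0.05 ± 0.10 (SE; adjusted p = 0.828).

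Among co-receptors, RGMB was at 15.7, 17.6 and 15.8 CPM with the NC TuD in HepG2, and at 23.3, 26.4 and 25.9 CPM with the miR-17 TuD. The groups were apart, and its log2 fold change of 0.63 ± 0.08 (SE; adjusted p = 2.48e-09) was the largest of the 10 in this line. The kit does not record strand, and RGMB shares 2682 exonic bases with 1 antisense gene and 363 with RGMB-AS1 in GENCODE 29. The exons of RGMB cover 6671 bases, and only within the shared bases can reads from RGMB and from these partners not be told apart. TGFBR3 was at 279, 291 and 297 CPM with the NC TuD and at 216, 211 and 227 CPM with the miR-17 TuD, again without overlap. It fell by 0.41 ± 0.04 on the log2 scale (SE; adjusted p = 6.6e-12), so the co-receptors moved in opposite directions.

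The type I receptors differed little between the arms of HepG2. TGFBR1, the partner of TGFBR2, was at 39.3, 42.1 and 38.4 CPM with the NC TuD and 34.2, 34.8 and 37.5 CPM with the miR-17 TuD. These groups were apart, but the log2 fold change of -0.17 ± 0.07 (SE) had an adjusted p of 0.0655. Without replicate 3 of the miR-17 TuD it was -0.21 and passed the threshold. ACVR1, a BMP type I receptor, was at 15.5, 18.6 and 18.6 CPM and then 19.3, 19.8 and 20.5 CPM, with a log2 fold change of 0.18 ± 0.09 (SE; adjusted p = 0.143). ACVR1B, the activin type I receptor, and BMPR1A had overlapping groups, with log2 fold changes of 0.07 ± 0.06 and -0.02 ± 0.07 (SE; adjusted p = 0.472 and 0.897). Of the 10 genes, 7 had groups that did not overlap, against 31.0% of all genes.

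**Figure D2:**
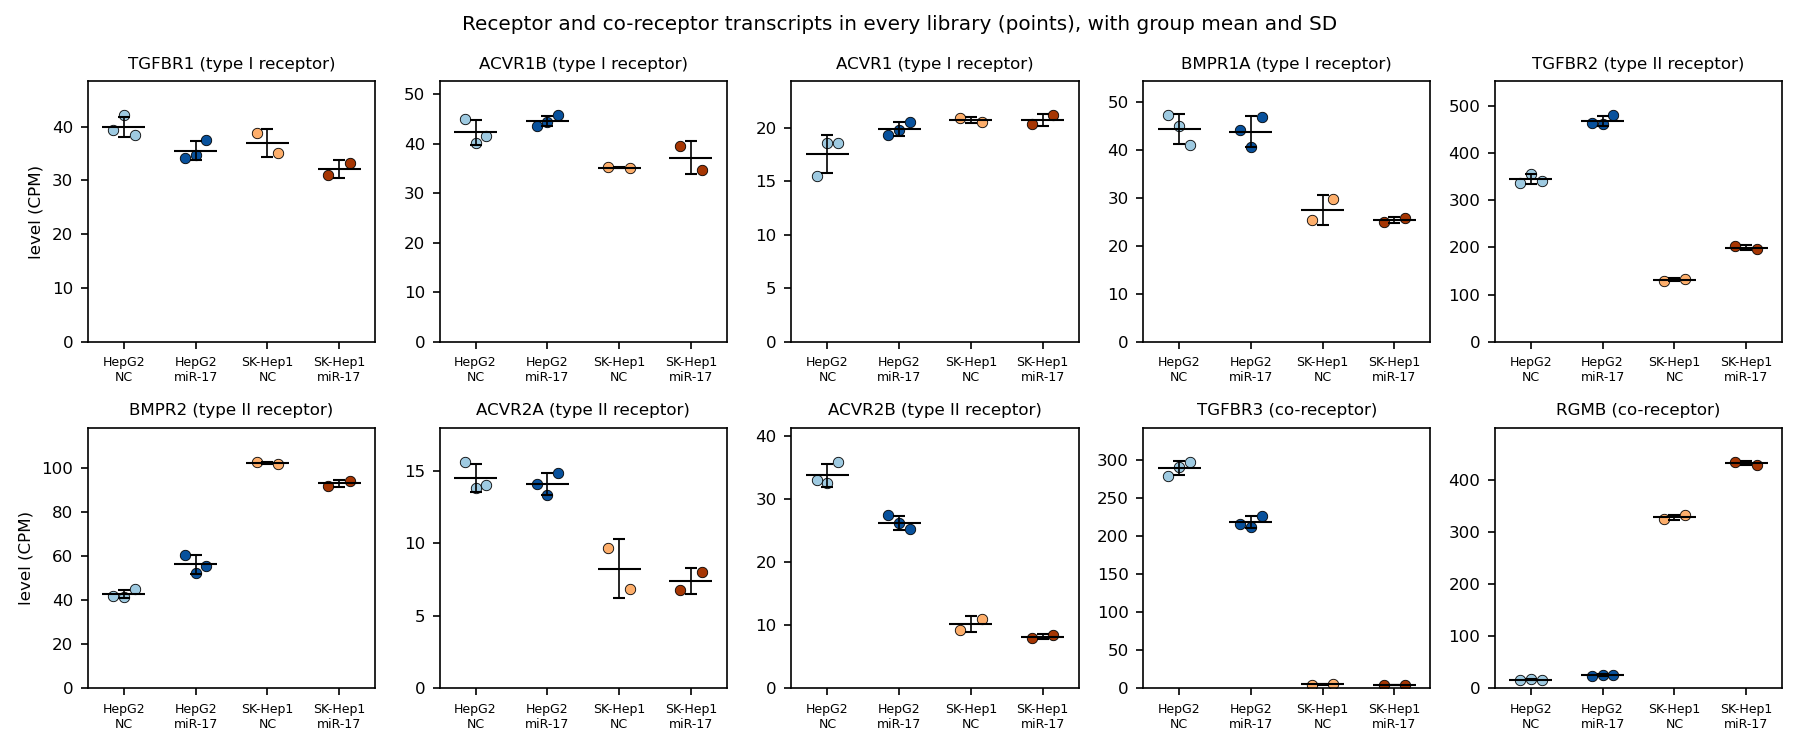
CPM of each receptor and co-receptor gene in every library, 1 panel per gene with its own vertical axis from 0 and the 4 groups along the horizontal axis. Points are libraries, long lines are group means and error bars are SD. In HepG2, TGFBR2, BMPR2 and RGMB sit higher with the miR-17 TuD and TGFBR3 and ACVR2B lower, while in SK-Hep1 the separated increases are those of TGFBR2 and RGMB.

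The same comparison in SK-Hep1 gave 2 increases, TGFBR2 and RGMB, and no decrease, by edgeR, voom, DESeq2 and the deposited log2 matrix alike. By edgeR, 3 decreases had an unadjusted p below 0.05. In that line 0.667% of all genes were called higher and 0.202% lower. TGFBR2 was at 129 and 134 CPM with the NC TuD and at 204 and 196 CPM with the miR-17 TuD. The groups were apart, with a log2 fold change of 0.61 ± 0.05 (SE; adjusted p = 1.39e-13), or 1.52-fold. RGMB was at 325 and 332 CPM with the NC TuD and at 435 and 429 CPM with the miR-17 TuD, also without overlap. Its log2 fold change was 0.40 ± 0.05 (SE; adjusted p = 3.22e-08), from a level 20.1-fold that of HepG2.

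The other members did not pass the test in SK-Hep1. BMPR2 was at 103 and 102 CPM with the NC TuD and at 91.9 and 94.2 CPM with the miR-17 TuD, a log2 fold change of -0.14 ± 0.06 (SE; adjusted p = 0.507). Its groups were apart, with the miR-17 TuD libraries below, the reverse of their order in HepG2. ACVR2B was at 9.27 and 11.0 CPM, then 7.92 and 8.47 CPM, with a log2 fold change of -0.31 ± 0.14 (SE; adjusted p = 0.5). TGFBR1 had a log2 fold change of -0.20 ± 0.08 (SE; adjusted p = 0.452), close in size to that in HepG2. TGFBR3 rested on 52 to 83 counts per library, and at that depth its log2 fold change of -0.24 ± 0.17 (SE; adjusted p = 0.769) was not distinguishable from 0. ACVR1, ACVR1B, BMPR1A and ACVR2A had overlapping groups and log2 fold changes between -0.14 and 0.08. In all, 6 of the 10 genes had groups that did not overlap, against 40.4% of all genes. The median log2 fold change of the 10 was -0.13 and that of all genes -0.01.

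Whether the response differed between the lines was tested as an interaction. BMPR2 alone among the 10 passed, at -0.53 ± 0.09 (SE; adjusted p = 1.99e-05) for SK-Hep1 minus HepG2 on the log2 scale, where 3.75% of all genes were called, 1.24% higher and 2.51% lower. The difference for TGFBR2 was 0.16 ± 0.06 (SE; adjusted p = 0.132) and that for RGMB was -0.23 ± 0.09 (SE; adjusted p = 0.157), so neither response was shown to differ between the lines. TGFBR3 and ACVR2B were called in HepG2 and not in SK-Hep1, yet their differences of 0.17 ± 0.18 and 0.05 ± 0.16 (SE; adjusted p = 0.732 and 0.949) did not pass.

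**Figure D3:**
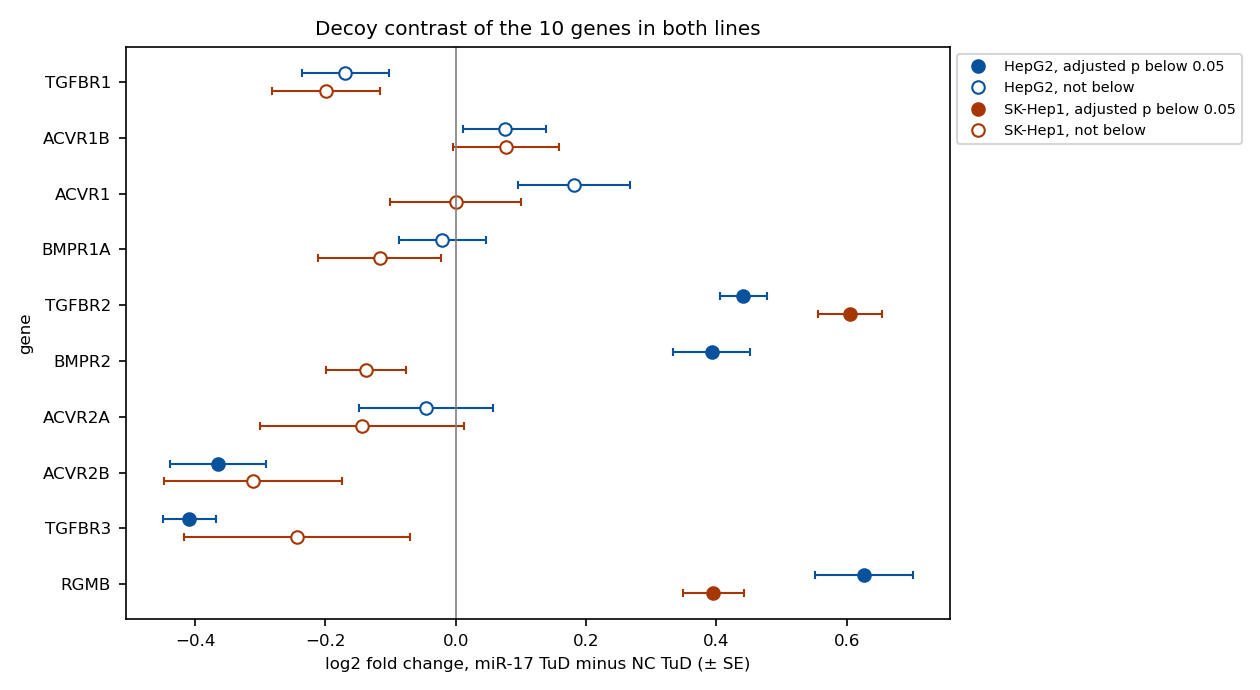
Log2 fold change of miR-17 TuD over NC TuD for each member, with HepG2 and SK-Hep1 as separate points and bars of 1 SE. Filled points passed the threshold. TGFBR2 and RGMB lie above 0 in both lines, and BMPR2 lies at 0.39 in HepG2 and at -0.14 in SK-Hep1.

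Some of the receptors stood at levels far apart between the lines, while others were close. Under the NC TuD, TGFBR3 was 56.7-fold lower in SK-Hep1 than in HepG2, at 4.71 and 5.45 CPM against 279 to 297, a log2 fold change of -5.83 ± 0.08 (SE; adjusted p = 7e-55). RGMB was 20.1-fold higher, with a log2 fold change of 4.33 ± 0.06 (SE; adjusted p = 1.51e-55). BMPR2 was also higher in SK-Hep1, by 1.26 ± 0.06, and TGFBR2 was lower, at -1.39 ± 0.04. ACVR2B, ACVR2A, BMPR1A and ACVR1B were lower, at -1.73 ± 0.10, -0.82 ± 0.13, -0.69 ± 0.08 and -0.27 ± 0.07. ACVR1 was higher at 0.24 ± 0.09 (SE; adjusted p = 0.0155), a call lost without replicate 1 of the NC TuD of either line, at 0.16 without that of HepG2 and 0.23 without that of SK-Hep1, and with DESeq2. TGFBR1 was not called, at -0.11 ± 0.07 (SE; adjusted p = 0.147). Thus 9 of 10 genes differed, 3 higher and 6 lower, while 86.7% of all genes were called, 43.9% higher and 42.8% lower. The same number, 9 of 10, had groups that did not overlap, against 90.4% of all genes. ACVR2A shares 430 exonic bases with ORC4 on the other strand, so its reads cannot be told apart from those of ORC4 there.

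To compare members with each other, CPM was divided by the length of the union of annotated exons, in kilobases. In HepG2 with the NC TuD, TGFBR2 led at 73.3 ± 2.26 CPM per kb (SD), then TGFBR3 at 33.2 ± 1.06, ACVR1B at 7.43 ± 0.44 and TGFBR1 at 5.83 ± 0.28. ACVR1, BMPR1A and BMPR2 followed between 3.60 and 4.40 CPM per kb, each overlapping its neighbour. RGMB was at 2.45 ± 0.159, and ACVR2B and ACVR2A, both at 2.14, could not be ordered. In SK-Hep1 with the NC TuD the order was led by RGMB at 49.2 ± 0.787 CPM per kb, ahead of TGFBR2 at 27.9 ± 0.656 and BMPR2 at 8.61 ± 0.0439. ACVR1B stood at 6.19 ± 0.0339, and TGFBR1 at 5.40 and ACVR1 at 5.20 overlapped. BMPR1A at 2.41 and ACVR2A at 1.22 came next, and ACVR2B at 0.645 and TGFBR3 at 0.583 overlapped at the bottom. These values, and sums and ratios built on them, depend on the length chosen. Per longest coding transcript, ACVR1 was at 5.76 and RGMB at 3.57 CPM per kb in HepG2 with the NC TuD. The order in that group did not change. In SK-Hep1 with the NC TuD, RGMB was at 71.7, and TGFBR1 and ACVR1 changed places. RGMB moved from rank 8 to rank 5 in HepG2 with the miR-17 TuD.

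**Figure D4:**
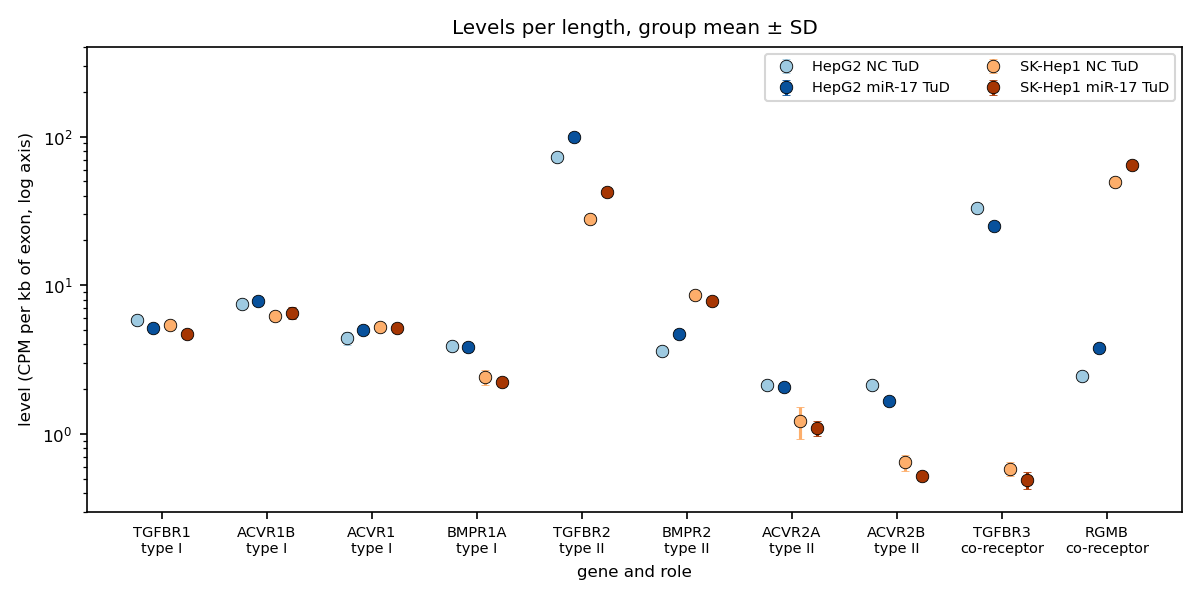
Level of each member per length in the 4 groups, as CPM per kilobase of exon on a log axis, with points for group means and bars for SD. Under the NC TuD, TGFBR3 is at 33.2 CPM per kb in HepG2 and 0.583 in SK-Hep1, and RGMB at 2.45 in HepG2 and 49.2 in SK-Hep1.

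Summed by role, the type II receptors of HepG2 came to 81.2 ± 2.05 CPM per kb (SD) with the NC TuD and 108 ± 2.23 with the miR-17 TuD, and the type I receptors to 21.5 ± 0.341 and 21.8 ± 0.8. In SK-Hep1 the type II sum was 38.4 ± 0.392 and 51.9 ± 0.871, and the type I sum 19.2 ± 0.214 and 18.6 ± 0.157. TGFBR2 made up most of the type II sum, at 90.3% and 92.2% in the arms of HepG2 and 72.7% and 81.8% in those of SK-Hep1. The ratio of TGFBR2 to TGFBR1 per length was 12.6 ± 0.327 and 19.2 ± 0.571 in HepG2 (SD), and 5.19 ± 0.491 and 9.07 ± 0.701 in SK-Hep1. The ratio of BMPR2 to BMPR1A was 0.93 ± 0.107 and 1.23 ± 0.0923 in HepG2, and 3.6 ± 0.424 and 3.52 ± 0.0257 in SK-Hep1. These sums and ratios describe RNA and were not tested. Among co-receptors, RGMB was 6.87% and 13.1% of the summed level in HepG2 and 98.8% and 99.2% in SK-Hep1.

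The other genes of the pathway were read from 6 lists, 103 genes in all, of which 75 were tested. In HepG2, 20 of the 75 were higher with the miR-17 TuD, 5 were lower and 50 were not called. Of all genes, 10.7% were called higher and 8.58% lower there, 19.3% in either direction. In SK-Hep1, 2 were higher, none was lower and 73 were not called, by edgeR, where 0.869% of all genes were called. At an unadjusted p below 0.05, 2 were lower by edgeR. No gene was called lower by voom or DESeq2, and 2, BMP4 and INHBC, were called lower on the deposited log2 matrix. Both calls rest on few counts. INHBC had 2 counts in each NC TuD library of SK-Hep1 and 0 in each miR-17 TuD library. BMP4 was there at 0.657 to 1.19 CPM with the NC TuD and at 0.373 to 0.42 CPM with the miR-17 TuD.

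Among 17 ligands tested in HepG2, 3 rose and 1 fell, against 10.7% and 8.58% of all genes. The median log2 fold change was 0.31 against 0 for all genes, but it takes in ligands near 0 CPM. With the NC TuD and then the miR-17 TuD, INHBA was at 0 and 0.0486 CPM and AMH at 0.0729 and 0.232 CPM. TGFB2, at 0.126 and 0.0253 CPM, went the other way. These were named after their values were seen, and the median does not measure a shift of the ligands as a group. The 3 called risers were activin and inhibin beta subunits. INHBB rose by 1.43 ± 0.18 (SE; adjusted p = 6.91e-09), from 2.67 to 7.11 CPM. INHBE rose by 0.39 ± 0.09 (SE; adjusted p = 0.00112), a call lost on the deposited log2 matrix, and INHBC by 0.31 ± 0.10 (SE; adjusted p = 0.0174), which did not pass in 4 alternatives. These were leaving out replicate 1 of the miR-17 TuD (0.23) or of the NC TuD (0.31), DESeq2 and the deposited log2 matrix. BMP4, named after its value was seen, fell by 0.13 (adjusted p = 0.0312). That call did not survive leaving out miR-17 TuD replicate 3 (-0.085), NC TuD replicate 1 (-0.13) or NC TuD replicate 3 (-0.12), and was also lost on the deposited log2 matrix and with DESeq2. TGFB1, the main TGF-beta ligand, had a log2 fold change of 0.02 ± 0.05 (SE; adjusted p = 0.881).

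Of 7 other receptors and co-receptors tested in HepG2, 3 rose and none fell by edgeR, against 10.7% and 8.58% of all genes. None was lower at an unadjusted p below 0.05 by edgeR, voom or DESeq2 or on the deposited log2 matrix. NRP1, neuropilin, a co-receptor shared with other growth factors, rose by 0.68 ± 0.07 (SE; adjusted p = 1.45e-11). ENG, the endothelial co-receptor endoglin, rose by 0.67 ± 0.16 (SE; adjusted p = 0.00158), from 3.42 to 5.45 CPM. In SK-Hep1 its mean was 67.1 CPM with the NC TuD and 69.7 CPM with the miR-17 TuD. NEO1, neogenin, the receptor to which RGM proteins bind, rose by 0.25 ± 0.07 (SE; adjusted p = 0.00479), which did not pass on the deposited log2 matrix. ACVRL1, a type I receptor of endothelium, had 0 counts in every HepG2 library and 2 or 3 counts in SK-Hep1 libraries, and was not tested. BMPR1B, a BMP type I receptor, had at most 1 count in a HepG2 library and 7 to 18 in SK-Hep1 libraries.

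None of the 6 SMAD transducers passed in either line by edgeR with TMM, with voom, on the deposited log2 matrix or with DESeq2. SMAD3, which carries TGF-beta and activin signals, had a log2 fold change of 0.13 ± 0.05 in HepG2 (SE; adjusted p = 0.0609) and passed there with RLE size factors. It was the 1 transducer in HepG2 with an unadjusted p below 0.05 by edgeR with TMM, where SK-Hep1 had 0. SMAD4, the shared partner of the others, had a log2 fold change of 0.02 ± 0.06 in HepG2 (SE; adjusted p = 0.826). Of 11 intracellular inhibitors, 1 rose and 1 fell in HepG2, against 10.7% and 8.58% of all genes. SKIL, a SMAD repressor, rose by 0.21 ± 0.08 (SE; adjusted p = 0.0384), and the call was lost in 10 alternative settings. FKBP1A, the immunophilin that holds type I receptors inactive, fell by 0.14 ± 0.04 (SE; adjusted p = 0.00275). SMAD7, the inhibitory SMAD, had a log2 fold change of 0.18 ± 0.07 (SE; adjusted p = 0.0602), and passed without HepG2 miR-17 TuD replicate 3 at 0.24 and with RLE size factors at 0.19.

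Of 13 extracellular inhibitors and latency proteins tested, 4 rose and 1 fell in HepG2, against 10.7% and 8.58% of all genes. The latency proteins LTBP1 and LTBP3, which hold TGF-beta in the matrix, rose by 1.46 ± 0.20 and 0.27 ± 0.06 (SE; adjusted p = 4.81e-08 and 0.000205). FSTL3, which binds activin, rose by 0.43 ± 0.07 (SE; adjusted p = 8.5e-06). LTBP2 rose by 0.75 and FST, follistatin, fell by 0.22, both named after their values were seen.

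Of 21 response genes tested, 9 rose and 2 fell in HepG2, against 10.7% and 8.58% of all genes. CDKN1A, the cell cycle inhibitor p21, rose in HepG2 by 0.40 ± 0.04 (SE; adjusted p = 3.6e-12) and had a log2 fold change of 0.16 ± 0.04 in SK-Hep1 (SE; adjusted p = 0.0516), where other settings put it past the threshold. HAMP, hepcidin, a BMP target in liver, fell in HepG2 by 0.96 ± 0.09 (SE; adjusted p = 2.42e-12), from 26.4 to 13.6 CPM, though it did not pass on the deposited log2 matrix (-0.96). ID1, another response gene named after its value was seen, was at 383 CPM and then 378 CPM in HepG2. Its log2 fold change was -0.02 ± 0.04 (SE; adjusted p = 0.819 by edgeR). CTGF, named after its value was seen, fell by 0.22 (adjusted p = 7.89e-06). In SK-Hep1 2 of the 21 rose by edgeR, among them ANGPTL4, at 0.38 ± 0.08 (SE; adjusted p = 0.00225), a call lost without replicate 1 of the NC TuD (0.36) or of the miR-17 TuD (0.25). It was also lost on the deposited log2 matrix.

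**Figure D5:**
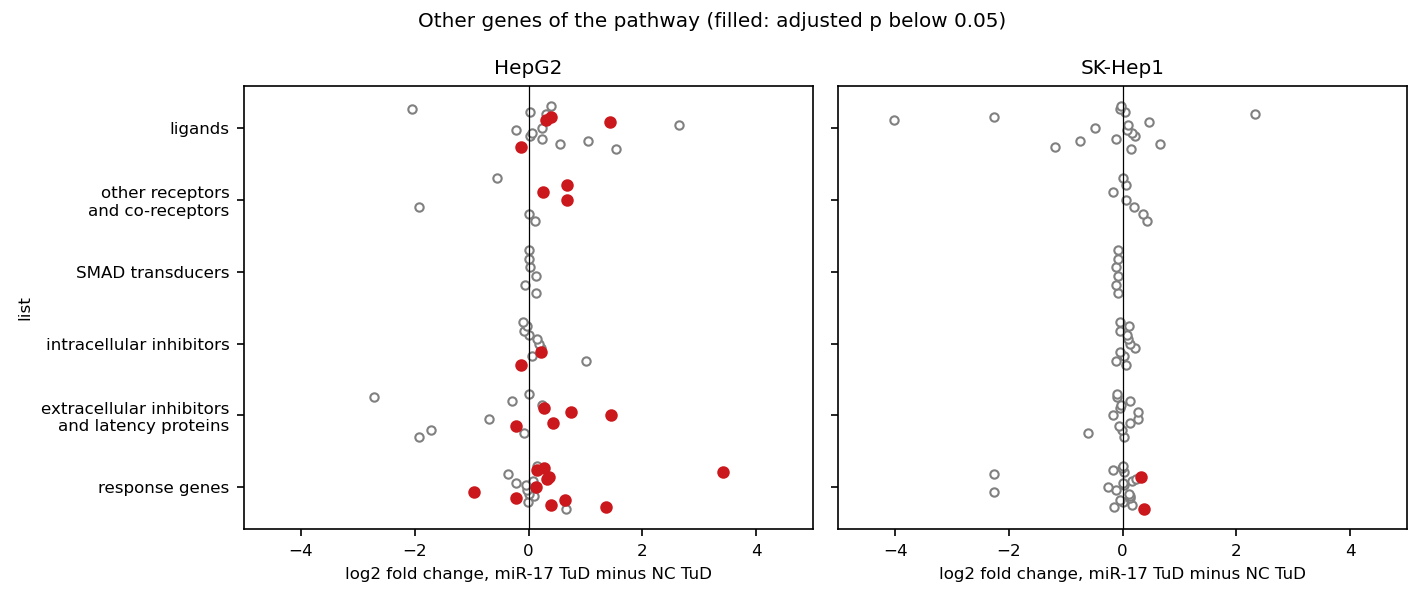
Log2 fold change of miR-17 TuD over NC TuD for the tested genes of the 6 pathway lists, as points by list and line, filled where the gene passed the threshold. In HepG2 20 points are called higher and 5 lower, with SNAI2 farthest to the right from only 0.0243 CPM to 0.353 CPM, and in SK-Hep1 the 2 called points are both response genes.

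The pattern of TGFBR2 across the 10 libraries, after the mean of each line was taken away, was most like those of RASA2, RASD1 and MINK1, with Pearson r of 0.968, 0.965 and 0.964 among 11165 genes. RASD1 was at 13.2 to 25.1 CPM in HepG2 but at 0.0657 to 0.448 CPM in SK-Hep1, so its 4 SK-Hep1 points rest on few counts. RGMB ranked 33 in that list at 0.923, while TGFBR3 and ACVR2B had r of -0.828 and -0.889 with TGFBR2. For RGMB the nearest were FZD6, TBC1D9 and RGL1, at 0.988, 0.983 and 0.981. The libraries share their depth scaling and the arms dominate what remains, so these values are a description of 10 points.

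The same search over all genes sets the members' seed matches in context. Of 704 genes whose best match was an 8mer, 24.7% were called higher and 4.97% lower in HepG2, and 5.82% higher and 0% lower in SK-Hep1. Of 2603 with a 7mer-m8, 12.5% were higher and 7.26% lower in HepG2, and 0.576% were higher and 0.307% lower in SK-Hep1. Of 9105 with no match, 9.19% were higher and 9.26% lower in HepG2, and 0.319% were higher and 0.187% lower in SK-Hep1. The 8mer genes had longer 3′UTRs, with a median of 3192 bases against 908 in genes with no match. TGFBR2 and RGMB, both with an 8mer, were the members called in both lines.

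The labelled lines were checked against markers. Gene counts came to 12884225 to 15076431 per library. A gene with no count could still stand at up to 3 counts, or 0.199 to 0.233 CPM, a limit that covers counting error only. The 8 hepatocyte markers summed to 32644 to 33547 CPM in HepG2 with the NC TuD and to 26280 to 27280 CPM with the miR-17 TuD, and to at most 86.0 CPM in SK-Hep1. This marker sum was lower with the miR-17 TuD in HepG2, as were TGFBR3, ACVR2B and HAMP, and its part in these results was not tested. The markers did not move together. ALB (13283 to 13900 CPM, then 9096 to 9772), AFP, APOA2 and TTR were lower without overlap, and APOA1 overlapped. SERPINA1 (4709 to 4896 CPM, then 5048 to 5198), TF and HNF4A were higher without overlap. The 5 endothelial markers summed to at most 2.94 CPM in any library, with PECAM1 and KDR at 0 in SK-Hep1, a line described as of endothelial origin, and blood cell markers to at most 3.71 CPM. The 5 epithelial markers summed to 2733 to 2829 CPM with the NC TuD and 3029 to 3325 CPM with the miR-17 TuD in HepG2. Each of the 5 was higher there without overlap, CDH1 at 11.964 to 13.614 CPM and then 32.606 to 36.614 CPM. In SK-Hep1 they summed to 5230 to 5346 and 5117 to 5136 CPM, nearly all from KRT8, KRT18 and KRT19. CDH1 in SK-Hep1 had 0 to 1 count with the NC TuD and 0 with the miR-17 TuD, and EPCAM 2 to 7 and 1 to 3. The 5 mesenchymal markers summed to 14863 to 16202 and 15631 to 15949 CPM in HepG2, and to 17272 to 17518 and 18438 to 18858 CPM in SK-Hep1. In HepG2 with the NC TuD the sum was nearly all FN1, at 14722 to 16052 CPM. VIM was at 1.89 to 2.15 CPM there and at 8696 to 8948 CPM in SK-Hep1 with the NC TuD. SPARC and THY1 were also higher in SK-Hep1, and FN1 and CDH2 were lower. The epithelial sums of both lines and the mesenchymal sum of SK-Hep1 thus did not overlap between arms, and their part in the results was not tested. TGFBR3 in SK-Hep1 libraries stood at 1.34% to 1.88% of its HepG2 NC TuD mean, while ALB stood at 0.0305% and 0.0547% in the NC TuD libraries of SK-Hep1. In the miR-17 TuD libraries of SK-Hep1, ALB stood at 0% and 0.00206%. AFP there had 62 and 76 counts with the NC TuD and 11 and 7 with the miR-17 TuD. SERPINA1 went the other way, at 63.8 to 65.9 CPM and then 67.4 to 70.1 CPM. The source of these differences was not tested.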

How the data were processed

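Poly(A) RNA from 150 ng of total RNA was read as 50 bp pairs with a kit that does not record strand. The authors deposited raw counts per gene, with reads aligned by STAR to hg19 and counted by HTSeq 0.5.4p5, per the submitters' processing notes. The series text names other aligners, RSEM and a mouse genome, but the symbols are human. The authors also deposited a log2 matrix of 13658 genes, in which the 13616 that matched a count row equal log2 of count plus 0.5 over 1 size per library, to within 5e-14. Entries that name no gene were left out (outside genes 11.6% to 14.1%, ambiguous 0.584% to 0.619%, not unique 4.47% to 5.04%, not aligned 2.43% to 2.87%).

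The test was edgeR 4.0.16 (R 4.3.3) on the counts: filterByExpr by group, TMM, 1 robust quasi-likelihood fit of 10 libraries with 4 group means, two-sided, Benjamini-Hochberg over 13349 genes, threshold 0.05. SE is the log2 fold change over the root of F. Alternatives used limma 3.58.1 (voom, and the deposited matrix), DESeq2 1.42.0, RLE factors, no filter, a replicate block, only the libraries compared, and each library left out. The fit was tested on simulated data. Members and lists were chosen with earlier results of these data known. All 10 members are named. From each list and line, up to 3 called genes with the smallest adjusted p are named, with SMAD4, TGFB1, BMPR1B, ACVRL1, ENG and SMAD7 in any case. Of the genes and sequences these rules cover, some are not reported here. For TGFBR2 and RGMB, the 3 genes most alike are named, among those with a mean log2 CPM of at least 1. Lengths, 3′UTRs and positions are from GENCODE 29 on GRCh38, whereas the counting used hg19. For the symbols, 18293 matched directly, 721 by an older symbol and 201 not at all.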

Additional observations from a re-analysis of the deposited data

Results flagged for a closer look

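For 10 of the genes named, the response to the decoy differed between the lines by the interaction test in edgeR, where 3.75% of all genes were called. Apart from the members, genes were mostly named for a small adjusted p in 1 line or after their values were seen. That choice favours a difference between the lines, so the count is not a result about the named genes as a group. Values are the log2 fold change in SK-Hep1 minus that in HepG2. BMPR2 had a difference of -0.53 (adjusted p = 1.99e-05), from 0.39 in HepG2 to -0.14 in SK-Hep1, and the call held in every alternative run. LTBP1 had a difference of -1.63 (adjusted p = 2.2e-06), NRP1 of -0.62 (adjusted p = 1.41e-06) and CTGF of 0.35 (adjusted p = 0.000161), and these also held in every alternative run.

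The other calls depended on single libraries or on the method. CDKN1A had a difference of -0.24 (adjusted p = 0.00604), lost without SK-Hep1 miR-17 TuD replicate 2, at -0.23. FKBP1A had a difference of 0.20 (adjusted p = 0.0233), lost without HepG2 NC TuD replicate 1 and without each SK-Hep1 library, at 0.17 to 0.21. TBC1D9 had a difference of -0.39 (adjusted p = 0.0283), lost without HepG2 NC TuD replicate 3, without each SK-Hep1 library and with DESeq2. ENG had a difference of -0.62 (adjusted p = 0.0342), lost without HepG2 miR-17 TuD replicate 1, HepG2 NC TuD replicates 1 and 2 and replicate 2 of either SK-Hep1 arm, at -0.61 to -0.50. It was also lost with voom, on the deposited log2 matrix and with DESeq2. NEO1 had a difference of -0.42 (adjusted p = 0.0491), lost without each HepG2 library but NC TuD replicate 3 and without replicate 2 of either SK-Hep1 arm, at -0.45 to -0.28. It was also lost with RLE size factors, voom, the deposited log2 matrix and DESeq2. SNAI2 had a fitted difference of -3.39 (adjusted p = 0.024), which rests on HepG2 levels of at most 0.42 CPM against 28.5 to 33.1 CPM in SK-Hep1. That call was lost without HepG2 miR-17 TuD replicate 1 and without HepG2 NC TuD replicate 2 or 3, and leaving out each library moved the value from -5.32 to -2.92.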

How the results depend on the processing

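Of 527 recomputed fold changes of the members, 495 kept direction and side of the threshold. Another 28 changed sign, none of them a call, 3 lost a call and 1 gained one. The calls of members numbered 5 in HepG2 (5 to 6 on leaving out each library), 2 in SK-Hep1 (2 to 2), 1 for the difference (1 to 1) and 9 between the lines (8 to 9). Leaving out a library of SK-Hep1 leaves 1 in that arm, which is assumed to vary like the other groups.

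The log2 fold change of ACVR1 in SK-Hep1 turned positive with RLE factors (0.015), only the libraries compared (0.0076), voom (2.5e-05), the deposited matrix (0.0016) and DESeq2 (0.014). The difference for ACVR1B turned negative with no filter (-0.0014), the replicate block (-0.0006026) and voom (-0.0016). On leaving out each library, these ran across 0: in HepG2 ACVR2A (-0.085 to 0.012), BMPR1A (-0.074 to 0.034), SMAD4 (-0.017 to 0.075) and TGFB1 (-0.039 to 0.072). In SK-Hep1 ACVR1 ran from -0.033 to 0.030, ACVR1B from -0.015 to 0.166, ACVR2A from -0.383 to 0.125, BMPR1A from -0.224 to 0.0045, BMPR1B from -0.274 to 0.973, ENG from -0.053 to 0.150, SKIL from -0.109 to 0.0057, SMAD7 from -0.052 to 0.278, SNAI2 from -0.091 to 0.129 and FST from -0.134 to 0.016. The differences ran from -0.089 to 0.092 for ACVR1B, -0.337 to 0.171 for ACVR2A, -0.061 to 0.186 for ACVR2B, -0.203 to 0.025 for BMPR1A and -0.102 to 0.046 for TGFBR1. The cause was not tested.

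Calls on the pathway lists in HepG2 went from 25 to 15 on the deposited matrix. In SK-Hep1 they went from 2 to 4 with RLE, 4 with no filter, 6 with only the libraries compared, 5 with voom and 5 with DESeq2. They ran from 1 to 2 on leaving out each library, with 1 without NC TuD replicate 1 and without miR-17 TuD replicate 1. Over all genes, HepG2 calls went from 2571 to 1705 with DESeq2. SK-Hep1 calls went from 116 to 274 with only the libraries compared, and to 49 to 70 without any 1 of its 4 libraries. On the deposited matrix, SK-Hep1 calls were 60 higher and 76 lower, against 89 and 27. The difference went from 500 calls to 330 with DESeq2 (148 higher and 182 lower, against 165 and 335). It ran from 266 to 613 on leaving out each library, and was 310 without HepG2 NC TuD replicate 1 and 266 to 329 without any 1 SK-Hep1 library.

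Same-numbered deviations from the group mean correlated at 0.0917, -0.502 and -0.458 in HepG2 and at -0.147 in SK-Hep1. With 2 libraries per arm in SK-Hep1, crossed numbers gave 0.147, the same size by construction. Deviations within a group cancel out, so these values cannot decide whether the replicate numbers pair the libraries. In HepG2 the highest values joined different numbers, 2 of the miR-17 TuD with 3 of the NC TuD (0.447) and 3 with 2 (0.548). With the replicate block, 1872 genes were called in HepG2, 58 in SK-Hep1 and 227 for the difference. The block also took away the calls of SKIL and BMP4 in HepG2 and of the differences for CDKN1A, ENG, FKBP1A, NEO1 and TBC1D9. A crossed pairing in SK-Hep1, added after seeing the data, called 103.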
